A study of Homo sapiens with 6 samples.

Results

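The high mobility group (HMG) protein genes described here are HMGB1, HMGB2, HMGB3, HMGA1, HMGA2, HMGN1, HMGN2, HMGN3 and HMGN4, 9 of the 19970 protein-coding genes that RefSeq places on chromosomes 1 to 22 and X of GRCh38. They were taken by name, and the peaks counted for each gene are those that meet its RefSeq span or the 5 kb on either side. That rule took 14 of 22362 peaks from the list for SON in untreated cells, 11 of 11158 from SON after 3 days of ICM, 0 of 5583 from SON after 6 days of ICM and 4 of 6013 from HMGB2 in untreated cells. All cells were IMR90, a fibroblast line of human lung origin, and the labels name no genotype or transgene and do not spell out ICM. Chromatin was profiled by ChIPmentation, in which a transposase adds sequencing adapters to immunoprecipitated chromatin on the beads. SON samples were fixed with 1% formaldehyde for 10 minutes, and the HMGB2 sample was first treated with 1.5 mM EGS, a protein crosslinker, for 20 minutes. The series also lists an input for HMGB2 and a further HMGB2 sample titled with DSG, not analysed here. Each group is 1 list, so no test between conditions was possible, and the depth of the libraries is unknown.

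HMG proteins are abundant architectural proteins of chromatin that bind DNA or nucleosomes with little sequence preference. The HMGB proteins bend DNA through HMG boxes, the HMGA proteins hold the minor groove of AT-rich DNA with AT hooks, and the HMGN proteins bind the nucleosome core and counteract linker histone. In fibroblasts, loss of HMGB2 from the nucleus has been described on entry into senescence, together with clustering of the insulator protein CTCF. SON is a scaffold protein of nuclear speckles, bodies rich in splicing factors. HMGB2 is thus both a gene of this family and the protein mapped in one of the lists, and the text below says which of them is meant.

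Many of the deposited peaks at these genes lay at gene starts, so the upstream sequence of the starts that the results turn on is given first, from RefSeq on GRCh38.p14. The promoter table held a window of 250 bases before to 50 after a start for 7 of the 9 genes and not for HMGB2 and HMGA2. Each line below is the 250 bases before a start, read 5′ to 3′ on the gene's own strand. Capitals mark CCAAT, or ATTGG where it stands on the other strand. In the outer HMGB1 start, which holds neither, they mark CTTCCGG, the reverse complement of the ETS-type motif CCGGAAG.
HMGB1, middle start, chr13:30465937-30466186, minus strand: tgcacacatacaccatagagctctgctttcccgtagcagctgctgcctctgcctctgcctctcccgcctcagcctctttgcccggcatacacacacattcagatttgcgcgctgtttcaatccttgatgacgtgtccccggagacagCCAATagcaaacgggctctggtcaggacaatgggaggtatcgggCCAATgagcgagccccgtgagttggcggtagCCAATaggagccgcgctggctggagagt
HMGB1, outer start, chr13:30617598-30617847, minus strand: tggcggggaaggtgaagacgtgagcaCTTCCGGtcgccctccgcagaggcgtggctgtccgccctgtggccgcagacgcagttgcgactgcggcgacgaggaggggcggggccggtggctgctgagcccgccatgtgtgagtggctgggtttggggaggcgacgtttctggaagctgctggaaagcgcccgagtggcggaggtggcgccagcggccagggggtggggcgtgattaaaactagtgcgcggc
HMGB3, chrX:150983085-150983334, plus strand: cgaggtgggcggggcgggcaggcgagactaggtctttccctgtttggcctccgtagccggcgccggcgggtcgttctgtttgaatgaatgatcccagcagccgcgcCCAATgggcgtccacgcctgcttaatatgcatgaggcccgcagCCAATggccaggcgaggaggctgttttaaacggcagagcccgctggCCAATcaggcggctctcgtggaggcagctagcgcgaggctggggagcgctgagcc
HMGN2, chr1:26472190-26472439, plus strand: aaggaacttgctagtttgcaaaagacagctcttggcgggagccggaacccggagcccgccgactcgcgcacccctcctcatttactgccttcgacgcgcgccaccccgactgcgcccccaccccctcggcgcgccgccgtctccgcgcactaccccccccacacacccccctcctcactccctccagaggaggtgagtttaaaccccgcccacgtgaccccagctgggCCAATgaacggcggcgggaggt
HMGN3, chr6:79234683-79234932, minus strand: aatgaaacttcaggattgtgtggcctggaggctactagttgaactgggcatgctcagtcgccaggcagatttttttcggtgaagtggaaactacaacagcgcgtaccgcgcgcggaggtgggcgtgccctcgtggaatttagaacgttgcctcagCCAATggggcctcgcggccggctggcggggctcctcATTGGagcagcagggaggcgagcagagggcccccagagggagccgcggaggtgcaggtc
All 250 bases of each stretch but that of HMGN2 lie under an untreated SON peak. The HMGN2 stretch, which also holds CCAAT, lies under no peak of any list and is shown for contrast. The other windows of these genes are not printed, and they are described with the motifs below.

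The strength of a peak is the −log10 p given by the authors. In the SON lists it is the lower of the values of 2 replicates, which are deposited beside it, and each SON peak also has a global irreproducible discovery rate (IDR), which is low where both replicates rank the peak high and alike. The replicate values are identical in 55.9% of the untreated lines and 29.0% of the 3-day lines. Whether the 2 replicates are independent libraries is not given, so equal values or a low IDR are not read as agreement between experiments. A percentile below is the share of lines in the same list at or below that strength. Such values describe a peak within its own list, and lists of different length or depth are not compared by them. Where an untreated and a 3-day SON peak overlapped, the untreated value was the higher in 81.1% of all pairs.

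The 3 HMGB genes encode closely related proteins with a pair of HMG boxes and an acidic tail. HMGB2, at chr4:173331376-173334358, carried the strongest SON peak of the family, at chr4:173334320-173334831, with a −log10 p of 50.1 in both replicates, rank 499 and an IDR of 0.00105. After 3 days of ICM the peak at chr4:173334221-173334750 had a −log10 p of 19.8 in both replicates, rank 1420 of its own list and an IDR of 0.00746. HMGB2 protein was found at its own gene, at chr4:173334361-173334676, with a −log10 p of 15.7 and rank 797. Its fold enrichment there, 3.97, was below the list's median of 4.89. These 3 peaks were at the upper-coordinate end of the gene, with summits 182, 144 and 172 bp outside it, and no 6-day peak was listed nearer than 36.2 kb.

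HMGB1, a widely expressed member of the group and also a secreted danger signal, spans chr13:30456704-30617597, and it had 3 SON peaks in untreated cells and 3 after 3 days. The strongest untreated peak, at chr13:30465835-30466187, had a −log10 p of 23.6 in both replicates and its summit 33 bp before the middle start. At the same start the 3-day value was 9.74 in both replicates, with an IDR of 0.0587, and the HMGB2 protein peak stood at 9.95, with a 3.06-fold enrichment. So the middle start, with 3 CCAAT boxes whose first bases lie 103, 59 and 28 bases before it, was met by 3 of the 4 lists. A further start deeper in the gene, at position 30465240, has a window with 1 CCAAT, on the other strand, and 9 copies of GGGCGG, and this window lay under no peak of any list.

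At the outer HMGB1 start the untreated replicates had 19.4 and 20.5, and the 3-day replicates had 10.6 and 17.1. The untreated peak there, at chr13:30617335-30618022, reached 103 bp into USPL1, a SUMO protease gene that runs the other way from chr13:30617920-30660766, so this peak cannot be assigned to HMGB1 alone. A weak peak inside the gene, 47.5 kb from the outer start, had 7.73 in both untreated replicates and 5.49 and 7.61 at 3 days, each time at the largest IDR of its list. HMGB2 protein had no peak at the outer start or at this weak inner SON peak, and its only HMGB1 peak was at the middle start.

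HMGB3, an X-linked gene at chrX:150980507-150990771 known from blood stem cells, carried a single SON peak, at chrX:150983080-150983379 in untreated cells, with 11.5 in both replicates and an IDR of 0.0114. Its summit lay 91 bp before a start with 3 CCAAT boxes, whose first bases lie 144, 101 and 55 bases before it. No other list had a peak at HMGB3: the nearest 3-day peak was 248 kb away and the nearest 6-day peak 291 kb away. The nearest HMGB2 protein peak was 3351 kb away. HMGB3 had the CCAAT count of the middle HMGB1 start and not its 3-day and HMGB2 peaks. Whether boxes and peaks go together was not tested.

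**Figure D1:**
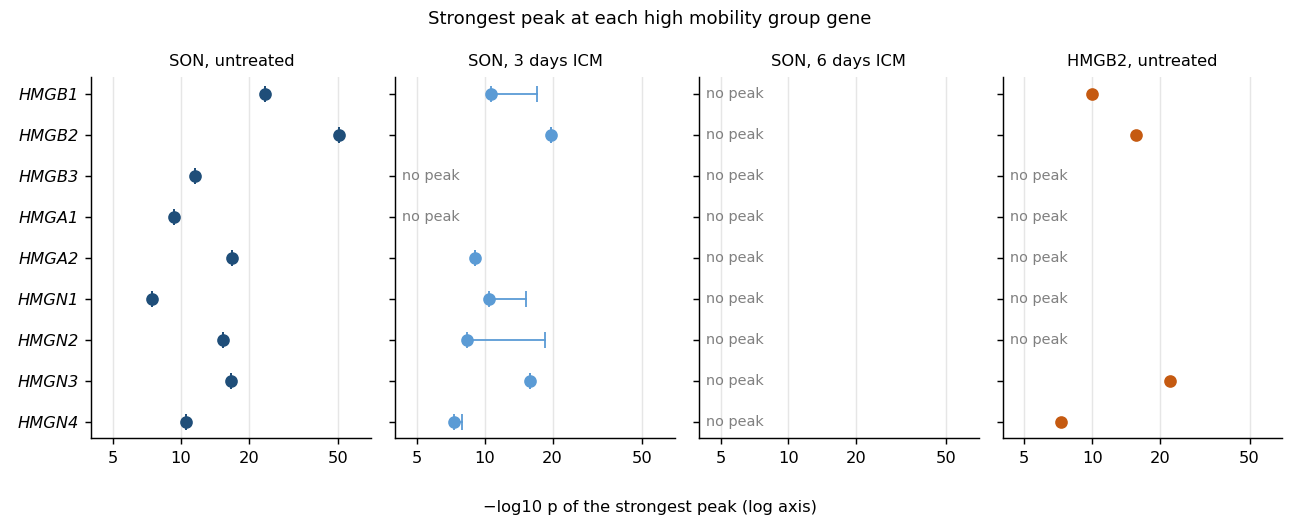
The −log10 p (log axis) of the strongest peak at each gene, 1 panel for each list; dots are the list's value and the ticks joined by a line the 2 replicates of the SON lists. HMGB2 is the highest gene in both SON panels that hold peaks, HMGN3 the highest for HMGB2 protein, and the 6-day panel holds no peak.

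The HMGA genes differed from the others in where their peaks lay. HMGA1, at chr6:34236873-34246231, encodes an AT-hook protein of proliferating and senescent cells, and it had no peak in its span in any list. Its only peak in the window, at chr6:34248966-34249362 in untreated SON with 9.29 in both replicates and an IDR of 0.0154, lay 2735 bp beyond the gene and 115 bp from the start of the neighbour SMIM29. With the window set to 1 kb HMGA1 carried no peak at all. Outside the window, the nearest 3-day SON peak and the nearest HMGB2 protein peak lay 12.6 kb away, at chr6:34223983-34224291 and chr6:34224019-34224271, with −log10 p of 8.33 and 9.59.

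HMGA2, an oncofetal AT-hook gene that spans chr12:65824460-65966291, had 3 SON peaks in untreated cells and 3 after 3 days, all inside the gene and none within 5 kb of its lower end. The strongest untreated one, at chr12:65892012-65892461, had 16.9 in both replicates and an IDR of 0.00638, and it was also the only one of the 3 found at 3 days, with 9.06 in both replicates and an IDR of 0.0696. The summits of that pair were 11 bp apart. The other untreated HMGA2 peaks had 6.46 in both replicates, and 10.1 and 8.24 in the replicates of a peak 795 bp from the upper end. The other 3-day peaks had 7.08 and 8.52, and 8.53 and 7.30, both at the largest IDR of the list. These 2 lay within the antisense genes HMGA2-AS1 and HMGA2-AS2, where a peak cannot be assigned to one strand. HMGB2 protein had no peak nearer than 496 kb.

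Of the HMGN genes, HMGN3 was the one met most strongly by HMGB2 protein. HMGN3, at chr6:79201245-79234682, encodes a nucleosome-binding protein of brain and endocrine cells and carried an HMGB2 peak at chr6:79234595-79234852 at a −log10 p of 22.2, rank 264 and 9.48-fold enrichment, above the list's median fold of 4.89. The HMGB2 protein peaks at HMGB1, HMGB2 and HMGN4 had folds below that median. SON at that start had 16.7 in both untreated replicates and 15.8 in both 3-day replicates, with IDR of 0.00645 and 0.0136. The untreated, 3-day and HMGB2 summits lay 41, 98 and 48 bp before the start, beside CCAAT at 95 bases and its reverse at 59 bases. A second, weak untreated SON peak, with 6.49 in both replicates, lay 872 bp after the start. The antisense gene HMGN3-AS1 runs over the whole of these peaks but for part of the weak one.

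HMGN1, a chromosome 21 gene at chr21:39342315-39349088, had 1 SON peak in the untreated list and 1 in the 3-day list. The untreated peak, at chr21:39349277-39349768, had 7.43 in both replicates at the list's largest IDR of 0.431, and the 3-day peak had 10.4 and 15.2 with an IDR of 0.0249. Both lay before the start, with summits 330 and 409 bp upstream. In the untreated list HMGN1 was the weakest of the 9 genes, at percentile 27.2.

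HMGN2, at chr1:26472440-26476642, had its SON peaks after the start. The untreated one, at chr1:26472760-26473403, had 15.4 in both replicates and an IDR of 0.00734, and its summit lay 652 bp into the gene. At 3 days the replicates had 8.37 and 18.6, the widest spread of any peak at these genes, with an IDR of 0.120 and a summit 746 bp into the gene. The peak stood at percentile 42.0 by the list's value and at 74.1 by replicate 2 alone.

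HMGN4, a retrogene of the HMGN2 type at chr6:26538366-26546933, had peaks before its start that lay over a pair of transfer RNA genes. The untreated SON peak, at chr6:26537337-26538411, was the widest of all, 1075 bp, with 10.5 in both replicates and an IDR of 0.0129. It held the whole of the tRNA genes TRR-ACG1-2 and TRV-CAC1-6, as did the 3-day peak, with 7.30 and 7.92 at the list's largest IDR. The HMGB2 protein peak, at a −log10 p of 7.30 and 3.81-fold enrichment, met TRR-ACG1-2 by 24 bp and ended 622 bp before HMGN4. Over all 429 tRNA genes of the table, 28.0% were met by an untreated SON peak, 18.6% by a 3-day one, 6.29% by a 6-day one and 15.6% by an HMGB2 protein peak. Signal of the tRNA genes and of HMGN4 cannot be told apart here.

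**Figure D2:**
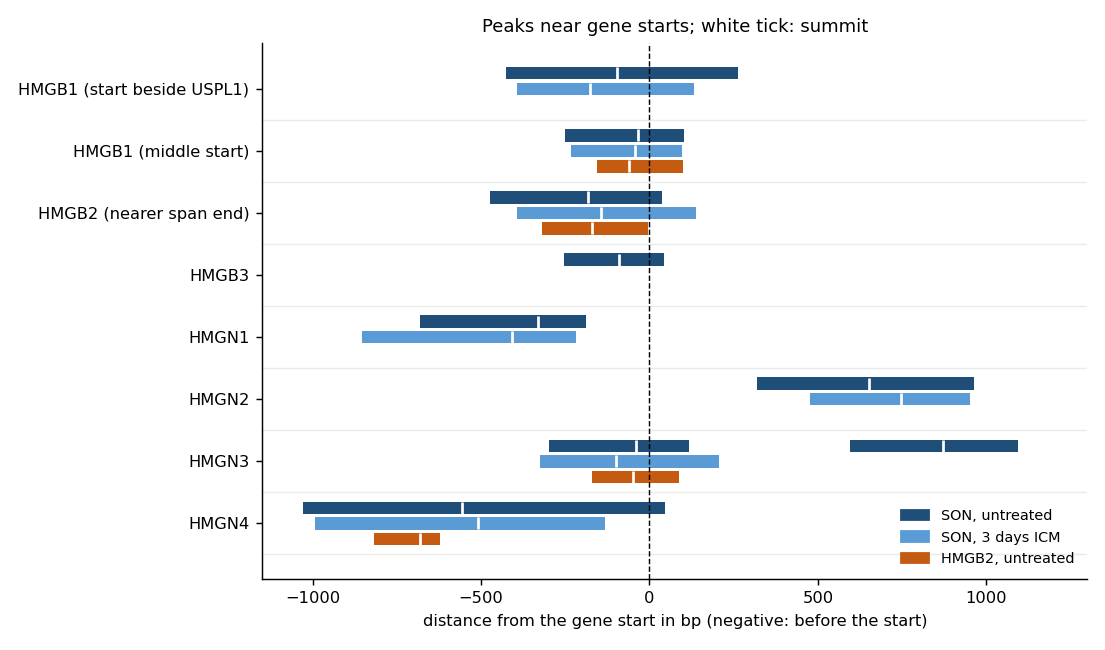
Extent of each peak within 1 kb of a start, in bp along the gene's strand, with the summit as a white tick; for HMGB2, zero is its upper-coordinate end and negative values lie outside the gene. The 3 lists with peaks stack over the middle HMGB1 start and the HMGN3 start, while HMGN1 and HMGN4 summits lie before and HMGN2 summits after the start. They also stack at the HMGB2 end, where both SON peaks cross the end and the HMGB2 protein peak lies 3 bp outside it. HMGA1 has no peak within 1 kb of a start, and HMGA2, which has no start in the table, is not drawn.

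Across the family, all 9 genes had an untreated SON peak in the window, where 57.1% of all protein-coding genes had one. At 3 days 7 of 9 had one, all but HMGB3 and HMGA1, against 41.0% of all genes. At 6 days 0 of 9 had one, against 21.5% of all genes. Among all genes with an untreated peak, 70.2% also had a 3-day peak and 37.2% a 6-day peak. HMGB2 protein met 4 of 9, HMGB1, HMGB2, HMGN3 and HMGN4, against 23.3% of all genes. By combination, 7 of 9 had SON in untreated cells and at 3 days but not at 6 days, as did 19.8% of all genes, and 4 of these 7 had HMGB2 protein as well, against 36.0% of the genes with that SON pattern. HMGB3 and HMGA1 had SON in the untreated list and in neither later list, as did 16.0% of all genes. These counts are descriptions of a small named family, and longer genes such as HMGB1 and HMGA2 have more room for a peak.

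A limit on the IDR keeps a part of the same peaks, and its counts fell from list to list, as those over all genes did. A peak with global IDR no higher than 0.05 lay at 8 of 9 genes in untreated cells, all but HMGN1, where 45.0% of all genes had one. At 3 days such a peak lay at 4 of 9, HMGB1, HMGB2, HMGN1 and HMGN3, against 24.0%. At 6 days it lay at 0 of 9 against 5.02%, which was fixed in advance, as these windows held no 6-day peak. For HMGB1 the 3-day peak that met this limit was the one shared with USPL1, and the middle start just missed it. As many lines hold equal values in both replicates, these counts do not show agreement of separate libraries.

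The 6-day list is the shortest, so the other SON lists were also reduced to about 5583 of their strongest lines. HMGB1, HMGB2, HMGA2 and HMGN3 then kept an untreated SON peak, 4 of 9 against 26.3% of all genes. At 3 days HMGB1, HMGB2, HMGN1 and HMGN3 did, 4 of 9 against 27.2%. The 6-day list already has that length, so its count carries no further information here. HMGB1, HMGB2 and HMGN3 are the genes in both of these sets.

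**Figure D3:**
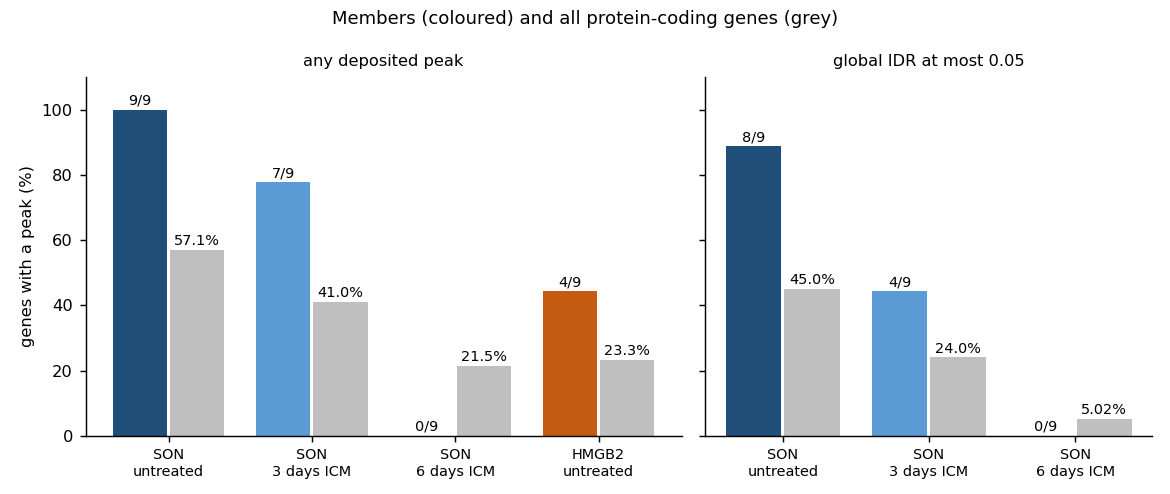
Percentage of the 9 genes (coloured, with counts) and of all protein-coding genes (grey) that carry a peak in the span or within 5 kb, for every deposited line on the left and, for SON, only lines with IDR up to 0.05 on the right. The coloured bars stand at 9, 7, 0 and 4 of 9 on the left and at 8, 4 and 0 of 9 on the right.

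No 6-day peak lay within 10 kb of any of the 9 genes either. The gap to the nearest one ran from 24.7 kb at HMGN4 to 384 kb at HMGA1, with a median of 67.8 kb, and was at most 50 kb at HMGN4, HMGN1, HMGB2 and HMGN2. Over the 7158 protein-coding genes that had an untreated SON peak and no 6-day one, the median gap was 101 kb and 31.7% had a gap of at most 50 kb. Some of these nearest 6-day peaks were strong in their own list: the one 39.9 kb from HMGN2, at DHDDS, had a −log10 p of 18.4 and that 36.2 kb from HMGB2, at SAP30, had 16.9.

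**Figure D4:**
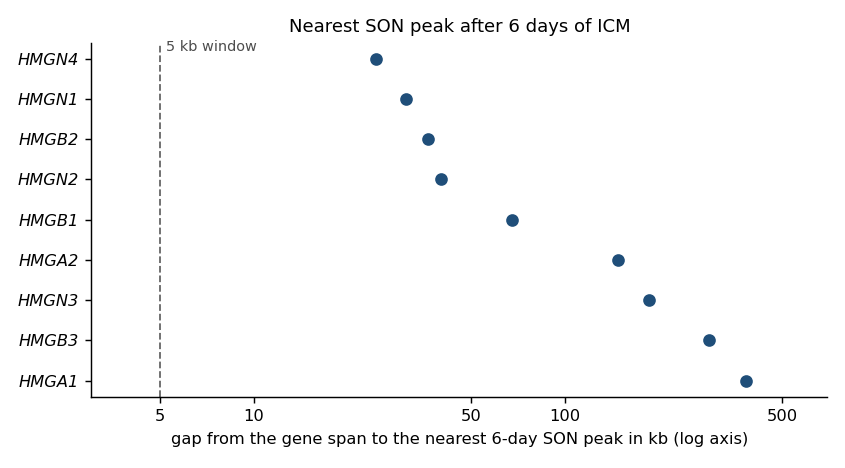
Gap in kb (log axis) from each gene's span to the nearest SON peak of the 6-day list, with the 5 kb window as a dashed line. All 9 genes lie beyond the window, from 24.7 kb at HMGN4 to 384 kb at HMGA1.

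Most SON peaks at these genes overlapped between the untreated and 3-day lists. Of the 14 untreated peaks 9 were overlapped by a 3-day peak, where 45.4% of all untreated peaks were, and 9 of the 11 3-day peaks were overlapped by an untreated one, where 91.6% of all 3-day peaks were. The exceptions at 3 days were both in HMGA2. The summits of the 9 pairs lay 11 to 94 bp apart. They lay within 50 bp at the middle HMGB1 start, HMGB2, HMGA2 and HMGN4, and 57 to 94 bp apart in the other pairs. Over all pairs the median was 28 bp and 74.0% lay within 50 bp. The untreated −log10 p was the higher in 8 of the 9 pairs, all but that of HMGN1, and in 81.1% of all pairs.

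The agreement of replicates went with the list. In untreated cells 12 of the 14 peaks had identical values in the 2 replicates, as did 55.9% of the whole list, and the other 2 were the outer HMGB1 peak and the HMGA2 peak near its upper end. At 3 days 4 of 11 peaks had equal values, where 29.0% of the list had, and in 6 of the other 7 replicate 1 was the lower. The share of the whole list with replicate 1 lower was not computed, so that count has no background beside it. Whether the replicates share reads is not given in the sources used here, and what makes values equal was not tested.

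All 4 HMGB2 protein peaks at these genes overlapped an untreated SON peak and a 3-day SON peak, where 62.3% and 44.1% of all HMGB2 peaks did. Their summits lay 7 bp from the untreated SON summit at HMGN3, 10 bp at HMGB2, 27 bp at HMGB1 and 123 bp at HMGN4, against a median of 38 bp over all such pairs. Ordered by fold enrichment in place of −log10 p, the HMGB2 protein peak at HMGN3 stayed high, at percentile 98.2 against 95.6. The peak at HMGB2 itself went from percentile 86.7 to 25.2 and that at HMGB1 from 54.6 to 7.98, while HMGN4 stayed at 21.0.

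Counted from gene starts, which depends less on gene length, 6 of the 7 genes with a promoter entry had an untreated SON peak within 1 kb of a start, all but HMGA1, where 42.9% of 15811 protein-coding genes had one. At 3 days 5 of 7 had one against 30.4%. At 6 days 0 of 7 had one against 12.6%, which was fixed in advance, as no 6-day peak lay within 5 kb of these genes. For HMGB2 protein 3 of 7 had one against 16.2%. HMGB1, HMGN3 and HMGN4 were the genes with all 3 kinds of peak.

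The promoter windows were searched on both strands for 7 motifs, and no match of one motif overlapped a match of another in these genes. CCAAT, the box bound by NF-Y, was found in 8 of 11 windows and in 6 of the 7 genes, all but HMGN4, where 34.6% of 22131 protein-coding windows and 42.1% of genes held it. The middle HMGB1 window and the HMGB3 window held 3 copies, where 3.61% of all windows held 3 or more, and HMGN1 and HMGN3 held 2. GGGCGG, the GC box bound by Sp1, was found in 6 of the 7 genes, all but HMGN3, against 64.3% of genes. CCGGAAG was found in HMGB1, HMGN1 and HMGN4, against 16.5% of genes.

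TTTGAA, the core of a cell-cycle promoter element, was found in HMGB1 and HMGB3, against 15.8% of genes. The E2F-type motifs TTGGCGC and TTCCCGC and the CTCF core motif were in none of these windows and in 5.03%, 10.5% and 0.557% of genes. Median GC content was 65.3% in the 11 windows and 62.3% over all. Whether CCAAT boxes go with the peaks was not tested. Of the CCAAT windows, those of the middle HMGB1 start, HMGB3, HMGN1 and HMGN3 met an untreated SON peak. Those of HMGA1, the deeper HMGB1 start and HMGN2, whose box lies 22 bases before the start, met none. The SON peaks of HMGN2 began 320 and 476 bp after its start. Without CCAAT, the outer HMGB1 window and the HMGN4 window met untreated and 3-day SON peaks, and the other HMGB3 window met none.

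The genes whose pattern over the 4 lists came closest to HMGB2, by the largest difference in percentile of the strongest peak, were CBR1, PPAN-P2RY11 and HNRNPU, at 2.73, 3.95 and 4.37 points. An absent peak counted as percentile 0, so the rule itself favoured genes without a 6-day peak. CBR1, a carbonyl reductase gene, had 36.5 in untreated SON, 17.5 at 3 days, no 6-day peak and 16.7 for HMGB2 protein. HNRNPU, a nuclear matrix RNA-binding protein gene, had 33.0, 16.5, none and 15.5. The PPAN-P2RY11 peaks are shared with the genes ANGPTL6, PPAN, P2RY11 and EIF3G, and HNRNPU shares peaks with LOC124904588.

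A list of 40 other genes for HMG-box proteins, linker histones and partners of HMG proteins gave 34 genes with an untreated SON peak, 24 at 3 days, 9 at 6 days and 20 with HMGB2 protein, beside 57.1%, 41.0%, 21.5% and 23.3% of all genes. The 6-day count is near that background. Those with a peak in all 4 lists included HMG20B, PBRM1, BBX, CIC, APEX1 and TREX1. HMG20B, a subunit of the CoREST complex, had the highest SON values of the list, 126 untreated, 80.3 after 3 days and 33.4 after 6 days. The linker histone genes, whose products compete with HMG proteins for nucleosomes, had an untreated peak at 6 of 7, a 3-day peak at 3, a 6-day peak at 0 and HMGB2 protein at 3, beside the same shares of all genes, and the 3-day count is near its background. Of the family members outside the 9 genes, named after their values were seen, HMGN5 had 18.4 in untreated SON and 10.0 at 3 days, and HMGB4 had no peak in any list.

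HMG genes have many processed pseudogenes, whose sequence matches their exons. Of the 178 pseudogenes in the table named after one of the 9 genes, none had a peak in its span in any of the 4 lists. The share over all pseudogenes was not computed, so this count has no background beside it. Whether reads from pseudogenes reached the peaks at the genes was not tested. How reads with several matches were treated is not given in the sources used here.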

How the data were processed

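The files analysed were 4 peak lists, 1 per group, with groups taken from the titles and treatment labels. Per the submitters' processing notes, Bowtie2, MACS2 and deepTools were used with hg38, roles not given; filters, the control and the depth are not given in the sources used here. For each SON peak the authors deposited 20 columns in IDR format with 2 replicates: −log10 p of the list and of each replicate, −log10 of the global IDR, and a score, the scaled IDR. For HMGB2 the authors deposited fold enrichment (a ratio), −log10 p, −log10 q and a score; the peak names state a q of 0.03. Whether the HMGB2 list pools replicates is not given.

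Peaks were matched to RefSeq spans (GRCh38.p14) plus 5 kb by at least 1 bp, ranked by −log10 p over all lines of a list, and set beside all protein-coding genes. Gene starts came from the promoter table. With 1 list per group no statistical test was made. All 9 members are named; the genes most like HMGB2 have the smallest largest difference in percentile over 4 lists, and of the 40 context genes those with a peak in all 4 lists are named, except an item not reported here. Members, lists and motifs were chosen with earlier results of these data known. The overlap search was tested on simulated data with 200 planted peaks, and it found 200. Alternatives covered the window, the threshold, IDR, overlap and measure of strength. The tools were matplotlib 3.10.9, pandas 2.3.3, numpy 2.4.6 and Python 3.11.15.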

Additional observations from a re-analysis of the deposited data

How the results depend on the processing

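Of the 58 recomputed counts outside the 6-day list, 41 stayed within 1.5 times the reported one. With the stronger 50% of each list, SON peaks at these genes numbered 8 in untreated cells and 5 at 3 days, at 4 genes at 3 days. With about 5583 of the strongest lines there were 5 peaks at 4 genes in untreated cells and 5 peaks at 4 genes at 3 days. With a global IDR of at most 0.05 there were 9 untreated peaks, and 4 at 4 genes at 3 days; 3 untreated and 3 3-day peaks then met each other, and 2 HMGB2 protein peaks met a 3-day one. With an IDR of at most 0.01, 5 genes had an untreated peak and 1 a 3-day one. With the gene span alone, HMGB2 protein had 2 peaks at 2 genes, since its peaks at HMGB2 and HMGN4 lie outside the spans. The other causes were not tested. The 6-day count was also 0 with a window of 10 kb; narrower windows and stricter limits could only give 0. Replicate values in place of the list's moved the percentile by over 10 points in 4 of 32 cases. All 4 were replicate 2 at 3 days, where 7 genes had a peak, and fell at HMGB2, HMGA2, HMGN2 and HMGN3. Most of the 32 could hardly move. At each gene's strongest SON peak replicate 1 equalled the list's value, and in untreated cells replicate 2 did too. No paired analysis was possible because each group is 1 list, and no replicate could be left out. Depth is unknown, so a peak missing from a list may be a peak below its threshold.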
